A study of Mus musculus with 6 samples.

Results

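The nuclear genes that build the mitochondrial ribosome, carry proteins into the mitochondrion and keep its genome were compared between high gainers and low gainers in inguinal fat, a subcutaneous depot. A gene was a member if its annotated symbol was that of a mitochondrial ribosomal protein (Mrpl or Mrps with a number), of a TOM or TIM translocase protein, or of 1 of a short list of mitochondrial transcription, replication, translation, protease, prohibitin and fusion genes. The rule took 105 probes of 100 genes, and 95 of these genes had a probe with a value on all 6 arrays, of 8596 genes so measured in all. A gene with several such probes is represented by the brightest. All mice were male C57BL/6J, fed the high saturated fat diet D12331 for 4 weeks from 8 weeks of age. They were sorted by the weight gained on it. RNA of 8 high gainers formed 1 pool and RNA of 8 low gainers another, and each pool was hybridized to 3 arrays. Repeats within a pool are technical, so that each p-value and interval here measures the spread between arrays and not that between mice. In a whole fat depot, fewer cells of a type and less RNA per cell cannot be told apart.

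Mitochondria make a handful of respiratory chain subunits on their own ribosomes, from messages transcribed from their own DNA, and import all their other proteins from the cytosol. The mitochondrial ribosome has a large and a small subunit whose proteins are all encoded in the nucleus. Precursor proteins enter through the TOM complex of the outer membrane and are passed on by TIM complexes at the inner membrane. White adipocytes use mitochondria for fatty acid and glycerol metabolism, and brown and beige adipocytes are packed with them for heat production.

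Many nuclear genes for mitochondrial proteins are known to be bound near their start by ETS factors such as GABPA, by NRF1 and by YY1. RefSeq promoter windows on GRCm38.p6 (250 bases before the start to 50 after it) were matched to 84 of the 93 members other than Mfng and Lonp2, whose proteins belong to the Golgi and the peroxisome. The ETS letters CCGGAAG, searched on both strands, lay in the windows of 34 of these 84 genes (40.5%), against 12.9% of 17491 protein-coding genes. The NRF1 letters GCATGCGC lay in 13.1% of the members, against 3.93% of all, and the YY1 letters AAGATGGC in 11.9%, against 3.57%. The NRF1 letters can overlap their own reverse complement. A match is a description of these letters and not of binding. Promoters of the members among these that passed an adjusted p of 0.05 (Tfam, lower in high gainers, and Mrps6, higher) and of Polrmt and Tufm, which did not pass the test, are shown 5′ to 3′ on the gene's strand, from 250 bases before the start to 10 after it, with matches to these letters in capitals.
Tfam (chr10:71238035-71238294, minus strand): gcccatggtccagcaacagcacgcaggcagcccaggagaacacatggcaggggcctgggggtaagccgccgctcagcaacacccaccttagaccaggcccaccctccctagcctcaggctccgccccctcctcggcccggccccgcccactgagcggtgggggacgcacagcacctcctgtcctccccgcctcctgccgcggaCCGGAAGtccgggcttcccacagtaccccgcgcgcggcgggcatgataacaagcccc
Mrps6 (chr16:92058086-92058345, plus strand): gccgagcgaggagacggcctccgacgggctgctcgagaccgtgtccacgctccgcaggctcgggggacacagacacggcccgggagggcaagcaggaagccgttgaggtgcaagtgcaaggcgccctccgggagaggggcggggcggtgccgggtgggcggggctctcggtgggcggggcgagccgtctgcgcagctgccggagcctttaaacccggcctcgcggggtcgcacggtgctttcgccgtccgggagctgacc
Polrmt (chr10:79746572-79746831, minus strand): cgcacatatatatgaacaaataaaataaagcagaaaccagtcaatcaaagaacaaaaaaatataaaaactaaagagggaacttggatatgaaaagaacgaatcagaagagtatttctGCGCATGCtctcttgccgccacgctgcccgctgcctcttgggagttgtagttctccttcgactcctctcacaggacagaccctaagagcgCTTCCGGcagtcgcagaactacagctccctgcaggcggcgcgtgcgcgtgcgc
Tufm (chr7:126487105-126487364, plus strand): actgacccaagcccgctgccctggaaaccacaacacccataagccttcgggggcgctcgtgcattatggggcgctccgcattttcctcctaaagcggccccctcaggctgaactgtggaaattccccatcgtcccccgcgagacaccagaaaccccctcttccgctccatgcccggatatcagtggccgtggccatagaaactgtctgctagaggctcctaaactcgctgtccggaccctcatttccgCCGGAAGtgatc
Tfam and Tufm carried the ETS letters close to the start, Polrmt carried the ETS and NRF1 letters, and none of the letters was found in the Mrps6 window. Members with the ETS letters had a median log2 ratio (high over low gainers) of -0.03 (34 genes) and members without them one of -0.002 (50 genes).

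Between 18018 and 20605 of 33012 probes gave a value on any 1 array, and 15821 did so on all 6. Signal intensities, which the authors had quantile normalized, were compared on the log2 scale with limma, and p-values were adjusted by Benjamini-Hochberg over all 15821 probes. Correlations (Pearson's r, across probes) were 0.988 to 0.994 within a pool and 0.972 to 0.98 between pools. A gene was called where the adjusted p was under 0.01 and the fold at least 1.5, and a second rule asked for an adjusted p under 0.05 alone. Of 17 listed adipocyte markers 13 were measured on all 6 arrays. The number of arrays limits the precision.

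No member was called in either direction. The share called among all tested probes was 2.5% for higher and 3.99% for lower in high gainers. At an adjusted p under 0.05 from limma, Mrps6 and Mfng were higher and Tfam was lower in high gainers, 3 of 95 members, against 8.87% of all probes higher and 7.72% lower. At the same threshold before adjustment, limma put 4 members higher and 5 lower, against 17.4% and 13.6% of all probes. The methods' t-test put 8 higher and 7 lower, against 15.5% and 12.5%. The median log2 ratio of the 95 members was 0.006, with 48 ratios above 0 and 47 below, and the median over all tested probes was 0.027. The arrays of the pools did not overlap for 14 members with every high-gainer array above and 14 with every high-gainer array below the low gainers, against 20.3% and 16.3% of all probes.

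The ratios of the members were spread narrowly, between -0.37 for Tfam and 0.54 for Mfng on the log2 scale, with a standard deviation over genes of 0.16. Over all tested probes the standard deviation was 0.42, and over the probes above the median signal it was 0.36. A miss of the threshold does not show that levels were alike, so the interval of each difference was read as well. The 95% interval of the log2 ratio lay wholly within a 1.5-fold change for 89 of 95 members (93.7%), against 58.1% of all tested probes and 72.4% of the probes above the median signal. The median standard error was 0.103 for the members and 0.125 for all probes. The 6 members whose interval reached beyond 1.5-fold were Mfng, Mrps6, Mfn2, Mrpl54, Mrpl32 and Mrps23.

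**Figure D1:**
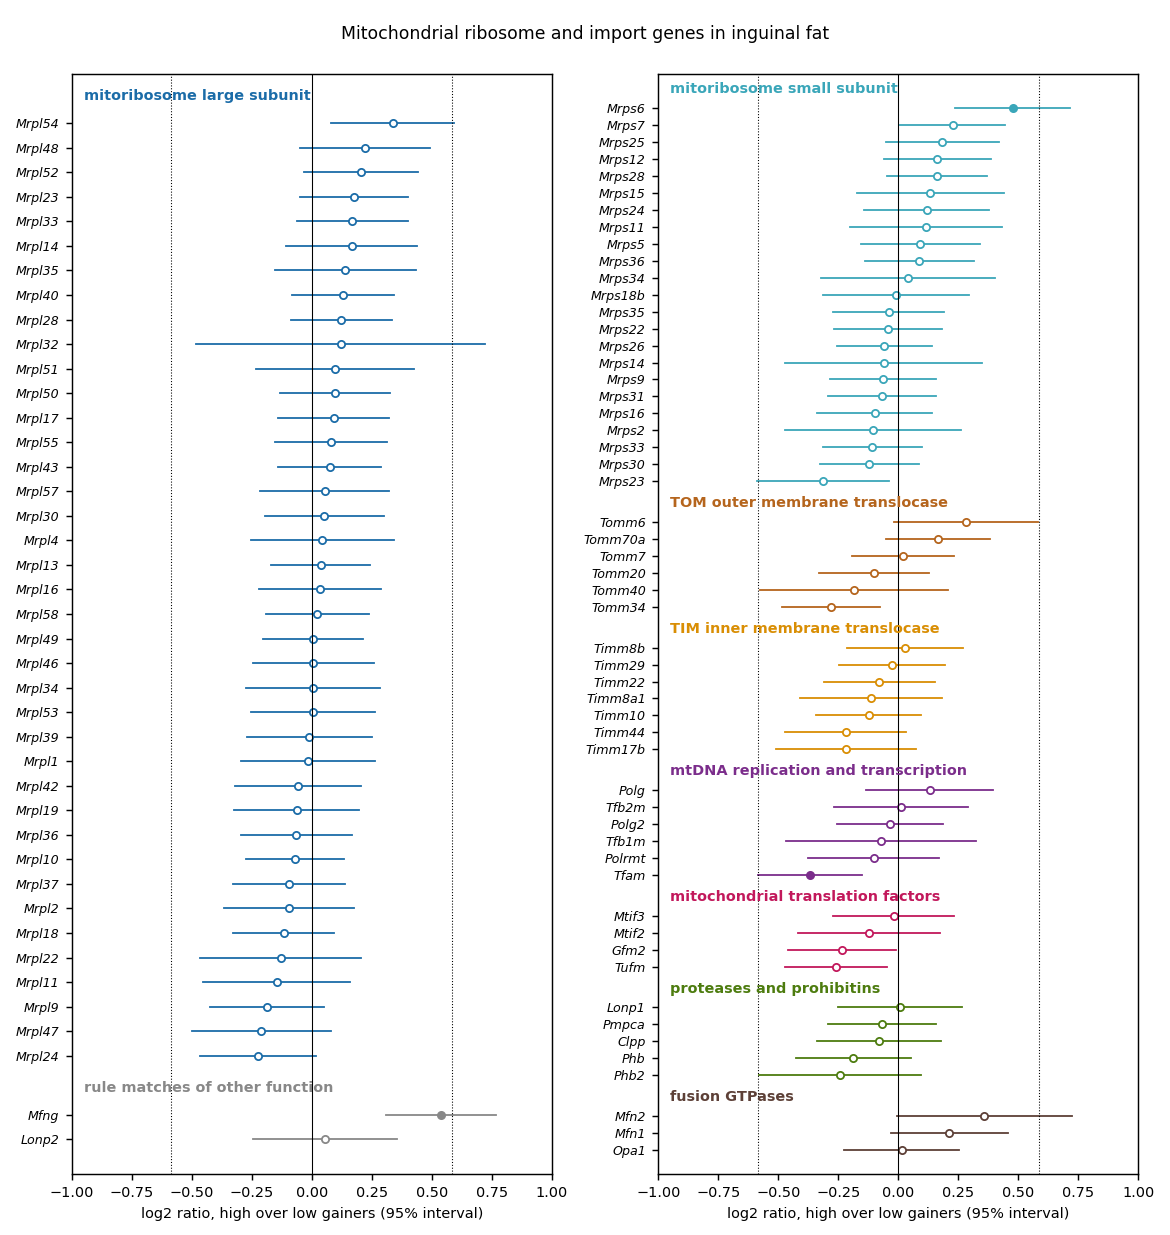
Log2 ratio of high over low gainers for each of the 95 members, grouped by role (points) with its 95% interval from limma (lines); filled points have an adjusted p under 0.05 and dotted lines mark a 1.5-fold change. The filled points are Mrps6 at 0.48, Mfng at 0.54 and Tfam at -0.37, and 89 intervals lie between the dotted lines.

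**Figure D2:**
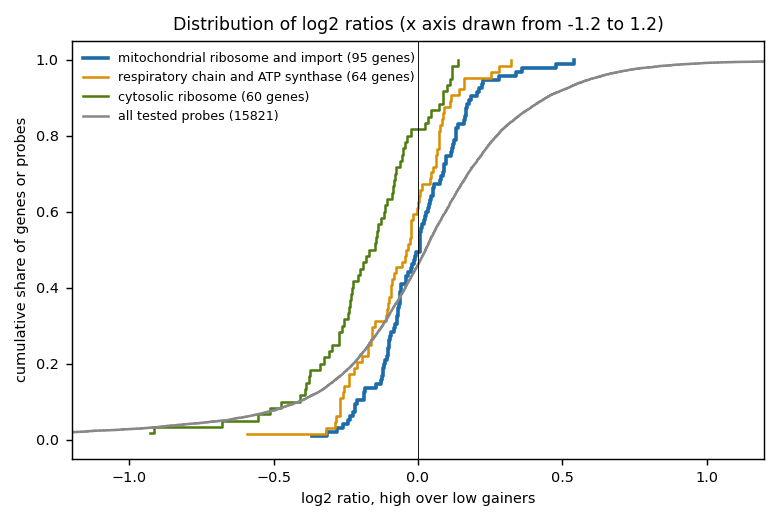
Cumulative share of genes or probes (vertical axis) at or below each log2 ratio of high over low gainers (horizontal axis) for the members, the respiratory chain, the cytosolic ribosome and all tested probes. The medians are 0.006, -0.038, -0.159 and 0.027, and the members run from -0.37 to 0.54.

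Tfam, the factor that packages mitochondrial DNA and starts its transcription, was the member that fell in high gainers. Its signal intensity was 33955, 37154 and 34978 in high gainers, against 44425, 44497 and 48009 in low gainers. Every high-gainer array lay below every low-gainer array. The means were 35362 ± 1634 and 45644 ± 2049 (SD, n = 3 arrays each), a level 1.29-fold lower in high gainers (limma adjusted p = 0.0349, with a log2 ratio of -0.37 and an SE of 0.09). With 1 array left out, Tfam passed 0.05 in 1 of 6 fits, and the adjusted p was 0.136 when either the first array of the high gainers or the last of the low gainers was dropped. It was 0.066 and 0.0797 without arrays 2 and 3 of the high gainers and 0.075 without array 2 of the low gainers, while the log2 ratio stayed between -0.40 and -0.33 over all 6 fits.

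The other genes for the upkeep and reading of mitochondrial DNA did not pass the test. Polrmt, the mitochondrial RNA polymerase, was at 49762 ± 3572 in high gainers and 53567 ± 5959 in low gainers (SD, n = 3 arrays each), a log2 ratio of -0.10 with a 95% interval of -0.37 to 0.17. Polg, the catalytic subunit of the mitochondrial DNA polymerase, had a log2 ratio of 0.13 (interval -0.13 to 0.40), the highest of its group. Tfb2m, which opens the promoter with Polrmt, had one of 0.01 (interval -0.27 to 0.29). The 6 genes of this group had a median of -0.053.

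Several brown and beige adipocyte genes were lower in the same high-gainer pool. Of 12 such markers, 8 were measured on all arrays, and 5 of them were lower and none higher at an adjusted p under 0.05. Of all tested probes 7.72% were lower and 8.87% higher at that threshold, which also holds for the other marker counts of this paragraph. Ucp1, the uncoupling protein of brown fat, was 6.84-fold lower (log2 -2.77, adjusted p = 0.000174 from limma) and Fabp3, a fatty acid carrier, 3.41-fold lower (log2 -1.77, adjusted p = 0.000371). Prdm16, a regulator of the brown and beige program, had a log2 ratio of 0.44 (adjusted p = 0.109). The summed intensity of the 8 was 895355 to 941535 on the high-gainer arrays and 1172476 to 1200457 on the low-gainer arrays. Most of that sum came from Cox8b, with means of 817500 in high gainers and 995590 in low gainers (adjusted p = 0.0637). Of 10 measured skeletal muscle markers all 10 were lower, with sums of 1109588 to 1181358 in high gainers and 2070545 to 2284026 in low gainers. Of measured B and T lymphocyte markers 7 of 7 and 8 of 8 were lower, and 4 of 5 epithelial ones, while 0 of 5 macrophage markers passed in either direction (limma; 0 at an unadjusted p under 0.05 too, and 1 lower by the methods' t-test). Their part in the difference of Tfam was not tested, nor was that of skeletal muscle in the values of the brown and beige list.

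Mrps6, a protein of the small subunit, rose in high gainers. Its signal was 517629, 449595 and 525883 in high gainers, against 371767, 340745 and 358536 in low gainers. Every high-gainer array lay above every low-gainer array. The level was 1.39-fold higher (limma adjusted p = 0.0199, with a log2 ratio of 0.48 and an SE of 0.10). With 1 array left out, Mrps6 passed 0.05 in 2 of 6 fits. The adjusted p was 0.0877 without high gainers replicate 1 and 0.0562 without replicate 3, and 0.0654 and 0.0706 without low gainers replicates 2 and 3, with a log2 ratio of at least 0.435 in all 6. Adipocyte markers leaned the same way, with 11 of 13 ratios above 0 and 2 below (Cidec at -0.30 and Dgat2 at -0.22). Their sums were 8332488 to 8785677 in high gainers and 7713740 to 8031404 in low gainers. At an adjusted p under 0.05 by limma, 2 of 13 (Lep and Plin4) were higher. Of 8 stromal markers 2 were higher and 1 lower. Over all tested probes 8.87% were higher and 7.72% lower. Shifting all ratios by the median change of the 13 adipocyte markers lowers every log2 ratio by 0.188, whatever the gene. Under that shift Mrps6 did not pass (log2 0.29, adjusted p = 0.0848 from limma), a result of the construction. The part of adipocytes or stromal cells in the difference of Mrps6 was not tested. In RefSeq, Slc5a3, a myo-inositol transporter, starts just upstream on the same strand and overlaps Mrps6, and no source used here states which of their transcripts the probe reads.

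**Figure D3:**
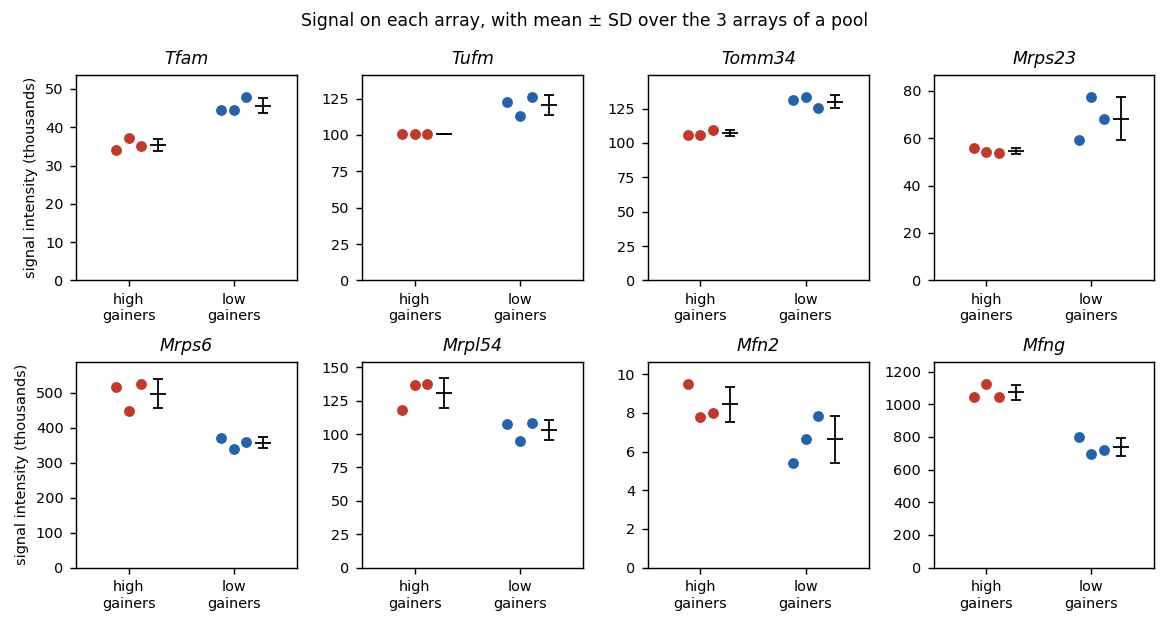
Signal intensity (linear axis from 0, scaled as marked) on each array for 8 members, red for the 3 high-gainer arrays and blue for the 3 low-gainer arrays, with the mean ± SD of each pool in black. Tfam averages 35362 in high gainers and 45644 in low gainers, and Mrps6 is higher on every high-gainer array.

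The other proteins of the mitochondrial ribosome showed smaller differences, in both directions. Of 23 measured small subunit genes, Mrps6 included, 11 had ratios above 0 and 12 below, with a median log2 ratio of -0.008. Of 39 large subunit genes, 25 lay above 0 and 14 below, with a median of 0.036, and none passed 0.05. Over both subunits, 54 of 62 genes differed by less than 0.2 on the log2 scale, against 50.7% of all tested probes.

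Mrpl54 had the highest ratio of the large subunit. It was at 117712, 136841 and 137552 in high gainers, against 107409, 94560 and 107940 in low gainers. The arrays did not overlap, but the adjusted p by limma was 0.0791, for a log2 ratio of 0.34 with an SE of 0.11. It passed without dim probes (0.0426), without probes below the median (0.0362) and with trend and robust estimation (0.0279). Mrpl54 passed in 0 of 6 fits with 1 array left out (limma adjusted p of 0.093 to 0.201). Under a shift of all ratios by the median change of the adipocyte markers its adjusted p was 0.352 (log2 0.15). At the other end of the large subunit, Mrpl24 was at 73957 ± 2954 in high gainers and 86586 ± 7779 in low gainers (SD, n = 3 arrays each), a log2 ratio of -0.22 (adjusted p = 0.188 from limma). Mrps23, a small subunit protein, was at 55922, 54024 and 53805 in high gainers, against 59330, 77575 and 67998 in low gainers. Its low-gainer arrays were spread widely, and the adjusted p by limma was 0.118, for a log2 ratio of -0.32 with an SE of 0.12. Mrps23 passed without low gainers replicate 1 (log2 -0.41, adjusted p = 0.0427 from limma). The shift by adipocyte markers lowers every ratio. It put Mrps23 at log2 -0.50 (adjusted p = 0.024 from limma) and Mrpl24 at log2 -0.41 (adjusted p = 0.0294). Mrpl33, a small protein of the large subunit, had a log2 ratio of 0.17 (interval -0.06 to 0.40).

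Not every Mrpl or Mrps symbol names a structural protein of the ribosome. Mrpl58 is a peptidyl-tRNA hydrolase that sits in the large subunit and frees stalled chains, and Mrps36 is known mainly as a part of the alpha-ketoglutarate dehydrogenase complex. Their log2 ratios were 0.02 and 0.09.

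Among the TOM genes none passed the test. Tomm20, the receptor for presequences, was at 228770 ± 17480 in high gainers and 244860 ± 8594 in low gainers (SD, n = 3 arrays each), with a log2 ratio of -0.10 and an interval of -0.33 to 0.13. Tomm40, the channel, was at 19335, 18847 and 20096 in high gainers, against 18781, 28911 and 19766 in low gainers. Low gainers replicate 2 stood above the other 5 arrays, and the log2 ratio of -0.18 had a standard error of 0.17. Without that array the ratio was 0.01. Tomm6, a small subunit that steadies the channel, had the highest ratio of the group, 0.28 (adjusted p = 0.187 from limma). Without low gainers replicate 1 it passed, with a log2 ratio of 0.41 and an adjusted p of 0.0381.

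Tomm34 had the lowest ratio of the TOM symbols, although its protein is a cytosolic co-chaperone of precursors and not a part of the complex. It was at 105670, 105906 and 109612 in high gainers, against 131353, 133707 and 125091 in low gainers, so that the arrays did not overlap (limma adjusted p = 0.0699, with a log2 ratio of -0.28 and an SE of 0.09). It passed 0.05 by the methods' t-test after adjustment (0.0223) and with trend and robust estimation (0.0263). It also passed without the probes below the median (0.031) or the dim ones (0.0379). However, Tomm34 passed in 0 of 6 fits with 1 array left out (limma adjusted p of 0.097 to 0.205). The shift by adipocyte markers, which lowers every ratio, put it at log2 -0.47 (adjusted p = 0.0103 from limma).

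Of the 7 measured TIM genes 6 had ratios below 0, and none passed the test. Timm44, which ties the import motor to the inner membrane channel, was at 30027, 30078 and 30410 in high gainers, against 32411, 39815 and 33559 in low gainers (log2 -0.22, adjusted p = 0.219 from limma). Under the shift by adipocyte markers, which lowers every ratio, its adjusted p was 0.0355. Timm17b, a channel subunit, had a log2 ratio of -0.22 (interval -0.51 to 0.07), the lowest of the group. Timm8b, a small chaperone of the intermembrane space, had the highest, 0.03 (interval -0.21 to 0.27). The group median was -0.114.

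The 4 measured translation factors all had ratios below 0, with a median of -0.179, and none passed. Tufm, the mitochondrial elongation factor that brings aminoacyl-tRNA to the ribosome, was at 100391, 100975 and 100572 in high gainers, against 122339, 112886 and 126401 in low gainers. The high-gainer arrays lay close together and below all low-gainer arrays, and the adjusted p by limma was 0.0997, for a log2 ratio of -0.26 with an SE of 0.09. Trend and robust estimation gave 0.0442, and leaving out probes dimmer than the median signal gave 0.0492. Tufm passed in 0 of 6 fits with 1 array left out (limma adjusted p of 0.111 to 0.293). The shift by adipocyte markers, which lowers every ratio, gave 0.0147 (log2 -0.45). Mtif3, an initiation factor, had the ratio nearest 0 of the group, -0.02 (interval -0.27 to 0.23), and reached 0.06 with 1 array left out.

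The proteases and prohibitins did not pass either. Lonp1, the main protease of the matrix, was at 314990 ± 16510 in high gainers and 314370 ± 32360 in low gainers (SD, n = 3 arrays each), with a log2 ratio of 0.01 and an interval of -0.25 to 0.26. Clpp, the other soluble matrix protease, had a log2 ratio of -0.08 (interval -0.34 to 0.18). Phb and Phb2, which form the ring of prohibitins in the inner membrane, had ratios of -0.19 and -0.24 with adjusted p of 0.268 and 0.308 from limma. Under the shift by adipocyte markers, which lowers every ratio, Phb was at log2 -0.38 (adjusted p = 0.0397 from limma). The second probe of Phb had a ratio of 0.06 (interval -0.16 to 0.28).

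The fusion genes had ratios above 0, although Opa1 was at -0.17 when all ratios were shifted by the median change of the adipocyte markers, and none passed. Mfn2, an outer membrane GTPase that joins mitochondria and is measured by a dim probe (a mean in the lowest 33.3% of tested probes), was at 9492, 7805 and 7990 in high gainers, against 5395, 6630 and 7844 in low gainers. The arrays overlapped (limma adjusted p = 0.169, with a log2 ratio of 0.36 and an SE of 0.16). Mfn1, its close relative, had a log2 ratio of 0.21 (adjusted p = 0.22 from limma), and its arrays did not overlap. Opa1, the fusion GTPase of the inner membrane, had one of 0.01 (interval -0.23 to 0.25), and its second probe one of 0.04.

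The rule also took a pair of genes whose proteins work elsewhere. Mfng, which encodes a Golgi glycosyltransferase that modifies Notch receptors and shares only the first letters of its symbol with the mitofusins, had the largest ratio of the 95. It was at 1044386, 1124686 and 1046923 in high gainers, against 799515, 695840 and 719223 in low gainers. It rose 1.45-fold (limma adjusted p = 0.0105, with a log2 ratio of 0.54 and an SE of 0.10) and passed 0.05 in 6 of 6 fits with 1 array left out. Lonp2, a protease of the peroxisome, had a ratio of 0.06. Without this pair the median log2 ratio of the remaining 93 genes was -0.008, with Mrps6 higher and Tfam lower.

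**Figure D4:**
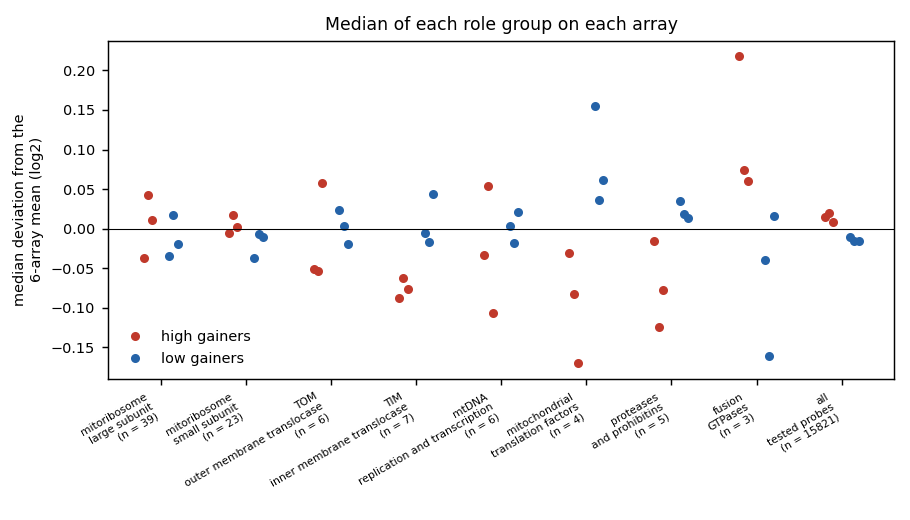
Median over the genes of each role group of the deviation from the 6-array mean of each gene (log2, vertical axis), with a point for each array, red for high gainers and blue for low gainers; the number of genes is under each group. The ribosomal groups lie within 0.05 of 0 on every array. The translation factors, the TIM genes and the proteases and prohibitins lie lower on the 3 high-gainer arrays. The fusion GTPases lie higher on them.

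The median deviation of the 95 members from their 6-array means was between -0.026 and 0.02 on the high-gainer arrays and between -0.016 and 0 on the low-gainer arrays. The high-gainer array farthest from the median of its pool was replicate 1 for 26 members, replicate 2 for 32 and replicate 3 for 37. Among the low-gainer arrays it was replicate 1 for 46 members, replicate 2 for 33 and replicate 3 for 16, so that the members' low-gainer values differed most often on replicate 1.

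For 5 genes a second probe had values on all 6 arrays. The pairs of log2 ratios were -0.11 and 0.27 for Mrps33, -0.19 and 0.06 for Phb, -0.11 and -0.08 for Timm8a1, 0.01 and 0.04 for Opa1 and 0.01 and -0.05 for Mrpl49, with the brighter probe first in each. The Mrps33, Phb and Mrpl49 pairs differed in sign, and no probe of these genes passed 0.05. Of the 5 members without values on all arrays, Mrpl15, Mrpl21 and Mrpl45 were blank on all 6 arrays. Timmdc1, an assembly factor of complex I, was blank on high gainers replicate 3, and its other values were 1237 and 1285 in high gainers and 2415, 1884 and 1371 in low gainers. Timm13 was blank on low gainers replicate 3, and its other values were 1653, 2546 and 2479 in high gainers and 2034 and 2138 in low gainers. A blank was treated as not measured.

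Many members lie head to head with another gene. Of the 84 members with a promoter window, 26 (31%) had a protein-coding neighbour on the opposite strand starting within 1000 bases upstream, against 8.48% of 17491 protein-coding genes. For 18 such pairs both genes were measured, with starts 11 to 614 bases apart. The log2 ratios of the neighbours differed by less than 0.2 in 11 pairs and by more than 0.4 in 3. Those 3 were Mrps7 with Gga3 (0.23 and -0.29), Mrpl49 with Fau (0.01 and -0.45) and Mrpl43 with Twnk (0.07 and 0.59). No such share was taken for genes that are not neighbours, so these counts do not show an effect of pairing. Mrpl46 and Mrps11, which start 42 bases apart and serve the large and the small subunit, had ratios of 0.01 and 0.12. Mrps12 and Sars2, the mitochondrial seryl-tRNA synthetase, had ratios of 0.16 and 0.08, and Timm8b and Sdhd, a subunit of complex II, had 0.03 and 0.09.

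A pair in which the neighbour passed the test was Mrpl43 with Twnk, the helicase of mitochondrial DNA replication, which start 116 bases apart. Mrpl43 had a log2 ratio of 0.07. Twnk, measured by a dim probe, was at 2488, 2811 and 2769 in high gainers, against 2038, 1388 and 2001 in low gainers (limma adjusted p = 0.0465, with a log2 ratio of 0.59 and an SE of 0.16). The other was Gfm2, a ribosome recycling factor of mitochondria, with Nsa2, a factor of cytosolic ribosome assembly, 11 bases away. Gfm2 had a log2 ratio of -0.23 (adjusted p = 0.149 from limma) and Nsa2 one of -0.45 (standard error 0.12, adjusted p = 0.0379).

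**Figure D5:**
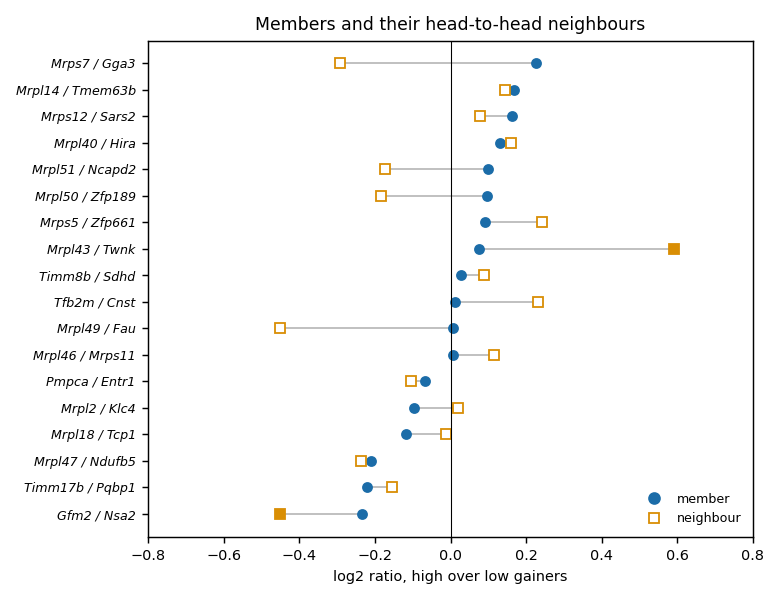
Log2 ratio of high over low gainers for 18 members (circles) and the genes that lie head to head with them (squares; filled where the adjusted p is under 0.05). Twnk at 0.59 and Nsa2 at -0.45 are the filled squares, and 11 of 18 pairs differ by less than 0.2.

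Genes that work beside the members, taken from lists by function, gave few calls as well. Of 15 measured genes of other import and assembly factors, Hspe1, the co-chaperonin that folds imported proteins, fell in high gainers and none rose. Hspe1 was at 310054, 330469 and 312438 in high gainers, against 382929, 403551 and 412640 in low gainers, 1.26-fold lower (log2 -0.33, adjusted p = 0.0448 from limma). Hspd1, its partner, had a ratio of -0.11 (adjusted p = 0.548) and Hspa9, the motor of import, one of 0.03 (adjusted p = 0.916). The list median was -0.058.

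No gene passed 0.05 among 8 of other quality control (median -0.038), 7 of other fission and fusion genes (median 0.062) and 14 mitochondrial tRNA synthetases (median 0.037). Of 22 other genes of mitochondrial gene expression, Twnk was higher and none was lower (median 0.033).

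Of 8 measured nuclear regulators of mitochondrial genes, Myc was called lower and the others did not pass 0.05. The list median was -0.221, with 2 ratios above 0 and 6 below. For 5 of the 8 every high-gainer array lay below every low-gainer array, against 16.3% of all probes. Myc was at 15797, 17374 and 14211 in high gainers, against 28808, 28034 and 27229 in low gainers, 1.78-fold lower (adjusted p = 0.00221 from limma). It is also expressed in dividing lymphocytes, whose markers were lower in the same pool, and their part in its difference was not tested. The paper dropped Myc as a candidate after other fat depots were examined. Ppargc1a, the coactivator of mitochondrial biogenesis, had a log2 ratio of -0.06 (adjusted p = 0.816 from limma) and Ppargc1b one of -0.24 (adjusted p = 0.167). Gabpa and Nrf1, the factors of the ETS and NRF1 letters, had ratios of 0.01 and -0.26 by dim probes, with adjusted p of 0.982 and 0.167 from limma. Yy1, the factor of the YY1 letters, had a log2 ratio of -0.20 (adjusted p = 0.275 from limma), and its arrays did not overlap.

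Set beside the members, 64 measured genes of the respiratory chain and ATP synthase, taken by symbol, had a median log2 ratio of -0.038. The symbols also took in assembly factors such as Ndufaf7 and the pseudogene Ndufs5-ps. None was called, and Cox7a1, which is also a brown and beige adipocyte marker, was the gene lower at 0.05 (log2 -0.59, adjusted p = 0.0187 from limma). The 60 measured genes of the cytosolic ribosome had a median of -0.159, with 2 called lower and 8 lower at 0.05 and none higher. Over all tested probes 3.99% were called lower, and at 0.05 7.72% were lower and 8.87% higher. The shares with an interval wholly within 1.5-fold were 93.7% for the members, 90.6% for the respiratory chain and 80% for the cytosolic ribosome. These differences between lists were not tested.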

How the data were processed

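Inguinal fat RNA of 8 high gainers and of 8 low gainers was pooled, and each pool was measured on 3 one-color chemiluminescent mouse arrays. The authors' quantile-normalized signal intensities were deposited on a linear scale, with blank cells whose cause no source used here states.

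The 15821 probes with 6 values were log2 transformed without further normalization and compared by lmFit and eBayes of limma (version 3.58.1, R version 4.3.3), with Benjamini-Hochberg adjustment over all of them. The procedure was tested on simulated arrays. Probes were named from the platform annotation, in which 14411 probes have 1 symbol, 247 have several (used for no gene) and 18354 have none. Symbols updated through RefSeq identifiers changed no member. The members, gene lists and rules were chosen with earlier results of these data known. Members named in the text pass either call rule, have the highest, lowest or brightest value of their role group, or are textbook genes of the machinery. Other genes named, such as Mrpl58, Mrps36, Gfm2, Lonp2 and those of the probe and neighbour pairs, were chosen after their values were seen. Promoter sequences are from RefSeq (GRCm38.p6).

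Alternatives were other normalizations, centring, filters, an offset, variance models and the equal-variance t-test. Others were the array number as a block, leaving out each array and other probe or membership rules. Slide and scan batches were not analysed here.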

Additional observations from a re-analysis of the deposited data

How the results depend on the processing

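No member was called, in either direction, under any of the alternatives run, those with 1 array left out included. The median log2 ratio of the members (0.006) became -0.182 when ratios were shifted by the median change of 13 adipocyte markers, which lowers each log2 ratio by 0.188 and takes in the higher Lep and Plin4, and it ran from -0.026 to 0.015 with 1 array left out, against a spread between arrays of 0.018. The number of members lower at an adjusted p under 0.05 (1) was 10 under that shift, 2 without dim probes and 3 without probes below the median. It was 3 with trend and robust estimation, 2 by the equal-variance t-test after adjustment and 0 to 2 with 1 array left out. The number higher (2) was 1 under the shift, 1 without Mfng and Lonp2 and 1 to 3 with 1 array left out. In the main fit 7.72% of all tested probes were lower and 8.87% higher at that threshold. Shares of all probes under the other settings are not given here, so these counts are no result about the members. Mrps6 did not pass 0.05 under the shift (log2 0.29, adjusted p = 0.0848 from limma). No other setting but leaving out an array kept it from passing 0.05. The cause of these changes was not tested, apart from the construction of the shift.

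The probes of all genes called higher (396) numbered 174 under the shift and 238 without probes below the median. They numbered 98 at 2-fold, 46 by the equal-variance t-test after adjustment and 105 to 319 with 1 array left out. Those called lower (632) numbered 1021, 306, 402 and 111 under the same settings, and 368 to 493 with 1 array left out. Arrays of the pools share only a number (deviations of same-numbered arrays correlated at r = 0.0377, -0.11 and 0.266, and 3 of 6 arrays correlated best with their own number). With the array number as a replicate block, 0 members were lower at 0.05 (Tfam, adjusted p = 0.0797), and 173 probes were called higher. Of 23 named members that did not pass 0.05, 8 changed sign under at least 1 alternative.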
